A study of Mus musculus with 6 samples.

Results

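The cytosolic ribosomal protein genes are the nuclear genes that encode the proteins of the ribosome of the cytosol. They were taken by symbol from the RefSeq annotation of the mouse build GRCm38. Members were protein-coding genes named Rpl or Rps followed by digits, with a suffix A, X or L allowed, together with Rplp0, Rplp1, Rplp2 and Rpsa. The rule found 81 of 21887 protein-coding genes, spread over 19 chromosomes, with gene spans of 592 to 11774 bp and a median of 3175 bp. Measured values played no part in the rule.

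Open chromatin had been profiled by ATAC-seq, an assay that uses the transposase Tn5 to cut accessible DNA and tag it for sequencing. Cultured mouse dermal fibroblasts without Lap2alpha (Lap2alpha KO, written KO here, 3 libraries) were compared with wildtype fibroblasts (WT, 3 libraries), both grown in the same serum-containing medium. Lap2alpha is a splice form of the lamina-associated polypeptide encoded by Tmpo, which resides in the nucleoplasm and binds A-type lamins. The labels give neither the knockout allele nor the sex or age of the animals, and do not say whether libraries of a genotype came from separate animals or cultures.

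Each genotype had 1 combined peak list without per-library values, so replicate spread could not be measured, p-values were not calculated, and every difference is a description of these 2 lists. The KO list held 98072 peaks over 66.8 Mb and the WT list 106132 peaks over 71.0 Mb, so the KO list had 92.4% as many peaks. Sequencing depth was unknown. Of 14 dermal fibroblast marker genes, 13 had a start-site peak in both lists, among them Col1a1, Pdgfrb, Vim and Twist2, and Lum had none in either. The 5 keratinocyte markers, with Krt5 and Krt14 among them, and the 3 muscle markers had none in either list. None of 4 leukocyte markers had a start-site peak in both lists. Start-site peaks in both lists were found at 2 of 4 endothelial markers, with median percentiles of 12.0 in KO and 42.3 in WT, and at 2 of 4 Schwann cell and melanocyte markers.

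Ribosomal proteins are made in matched amounts, coat the ribosomal RNAs, and are grouped by the small (Rps) or large (Rpl) subunit they enter. Their genes are short and strongly transcribed in growing cells such as cultured fibroblasts. Transcription of many of them begins inside a run of pyrimidines, which leaves a terminal oligopyrimidine tract at the 5′ end of the mRNA and places its translation under control of mTOR.

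Of the 81 genes, 61 had an annotated start in the RefSeq promoter table of GRCm38.p6. The sequences below run from 60 bases before to 19 bases after the annotated start base, 5′ to 3′ on the strand of the gene. They show Rplp0 and Rplp2 of the ribosomal stalk, Rpl37 and Rpl41, whose peaks overlapping the start rank near the upper end of the members, and Rps16 and Rps23 with the lowest. They also show Rpl10l, a paralog without a start-site peak, and Rpl15 and Rpl27a, chosen after the promoters had been searched because their pyrimidine runs are long. Capitals mark a run that begins with C within 5 bases of the annotated start and holds at least 4 further pyrimidines, or else the letters CCGGAAG, the core bound by ETS-family factors.
Rplp0: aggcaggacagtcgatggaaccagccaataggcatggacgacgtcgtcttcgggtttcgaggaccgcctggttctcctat
Rplp2: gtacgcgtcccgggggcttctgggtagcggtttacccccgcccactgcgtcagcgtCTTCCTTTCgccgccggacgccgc
Rpl37: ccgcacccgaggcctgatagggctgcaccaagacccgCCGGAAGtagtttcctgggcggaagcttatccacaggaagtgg
Rpl41: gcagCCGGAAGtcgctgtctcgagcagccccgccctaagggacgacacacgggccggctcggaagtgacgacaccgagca
Rps16: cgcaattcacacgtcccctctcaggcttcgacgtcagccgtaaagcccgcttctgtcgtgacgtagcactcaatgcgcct
Rps23: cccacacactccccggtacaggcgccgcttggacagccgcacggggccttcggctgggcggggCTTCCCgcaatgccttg
Rpl10l: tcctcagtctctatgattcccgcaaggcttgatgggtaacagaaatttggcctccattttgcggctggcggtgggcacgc
Rpl15: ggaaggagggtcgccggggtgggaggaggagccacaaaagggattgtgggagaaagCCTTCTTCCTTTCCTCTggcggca
Rpl27a: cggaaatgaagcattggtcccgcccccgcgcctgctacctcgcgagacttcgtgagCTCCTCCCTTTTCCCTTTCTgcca

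In GRCm38.p6 these stretches lie at chr5:115559407-115559486 on the plus strand for Rplp0 and chr7:141447591-141447670 on the plus strand for Rplp2. That of Rpl37 lies at chr15:5116553-5116632 on the plus strand and that of Rpl41 at chr10:128549149-128549228 on the minus strand. Rps16 is shown from chr7:28350629-28350708 and Rps23 from chr13:90923062-90923141, both on the plus strand. Rpl10l is shown from chr12:66284382-66284461 and Rpl15 from chr14:18270967-18271046, both on the minus strand, and Rpl27a from chr7:109519135-109519214 on the plus strand. The run spans 17 bases in Rpl15, 20 bases in Rpl27a and 9 bases in Rplp2.

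A start-site pyrimidine run was present in 29 of the 61 members (47.5%), against 21.5% of the promoters of all 17492 protein-coding genes in the table and 24.6% of 69 mitochondrial ribosomal protein genes. In the window from 250 bases before to 50 bases after the start, searched on both strands, CCGGAAG was found in 25 of 61 members (41.0%) and in 12.9% of all promoters. Mitochondrial ribosomal protein genes held it in 37.7%, so that this motif was about as frequent there, whereas the pyrimidine run was not. AAGATGG, the core of the YY1 site, was in 14.8% of members and 7.18% of all promoters, and GCGCATG, the core of the NRF1 site, in 13.1% and 5.40%. Mitochondrial ribosomal protein genes held AAGATGG in 18.8% and GCGCATG in 11.6%. GGGCGG, the GC box bound by Sp1, was in 59.0% of members and 49.2% of all promoters. CCAAT was in 31.1% of members against 42.3% of all promoters, TATAAA in 11.5% against 14.8%, and the E-box CACGTG bound by Myc and Max in 9.84% against 8.91%. The median GC content of the window was 56.7% in members and 56.3% in all promoters. A match says only that these letters are present.

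At the start sites the 2 genotypes gave the same set of genes. A start-site peak, here the strongest peak overlapping the 1 kb on either side of an annotated start, or of either gene end where no start was given, was found in both lists for 77 of the 81 members, and in 1 list only for none. Over all protein-coding genes 55.0% had such a peak in both lists, 1.08% in KO only, 2.01% in WT only and 41.9% in neither. The 4 members with none in either list were Rpl3l, Rpl10l, Rpl39l and Rpl32l. Rpl3l is a paralog of Rpl3 known from skeletal and heart muscle, and Rpl10l and Rpl39l are paralogs of the X-linked Rpl10 and Rpl39 known from male germ cells. No peak of either list had its summit within 10 kb of Rpl10l, Rpl32l or Rpl39l. Rps27l, a paralog of Rps27 with broad expression, had a start-site peak at percentile 96.6 in KO and 97.3 in WT.

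The strength of a peak is given as the percentile of its deposited signal within its own list, since the signal carries no scaling between lists. The 77 start-site peaks had a median percentile of 91.4 in KO (range 70.4 to 99.9) and 92.6 in WT (range 73.4 to 99.9). The 11971 other genes with start-site peaks in both lists had medians of 90.2 in KO and 91.6 in WT. Percentiles of at least 90 were held by 46 members in KO (59.7%) and 52 members in WT (67.5%), against 50.5% of the other genes in KO and 56.6% in WT. The median KO minus WT difference was -0.66 percentile points, with 22 members higher in KO and 55 higher in WT. Over all genes with start-site peaks in both lists, 34.0% were higher in KO and 66.0% higher in WT, and the median difference of the other genes was -0.86, a share and a shift close to those of the members. When signal per base was ranked in place of signal, the members' median difference was 0.006.

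**Figure D1:**
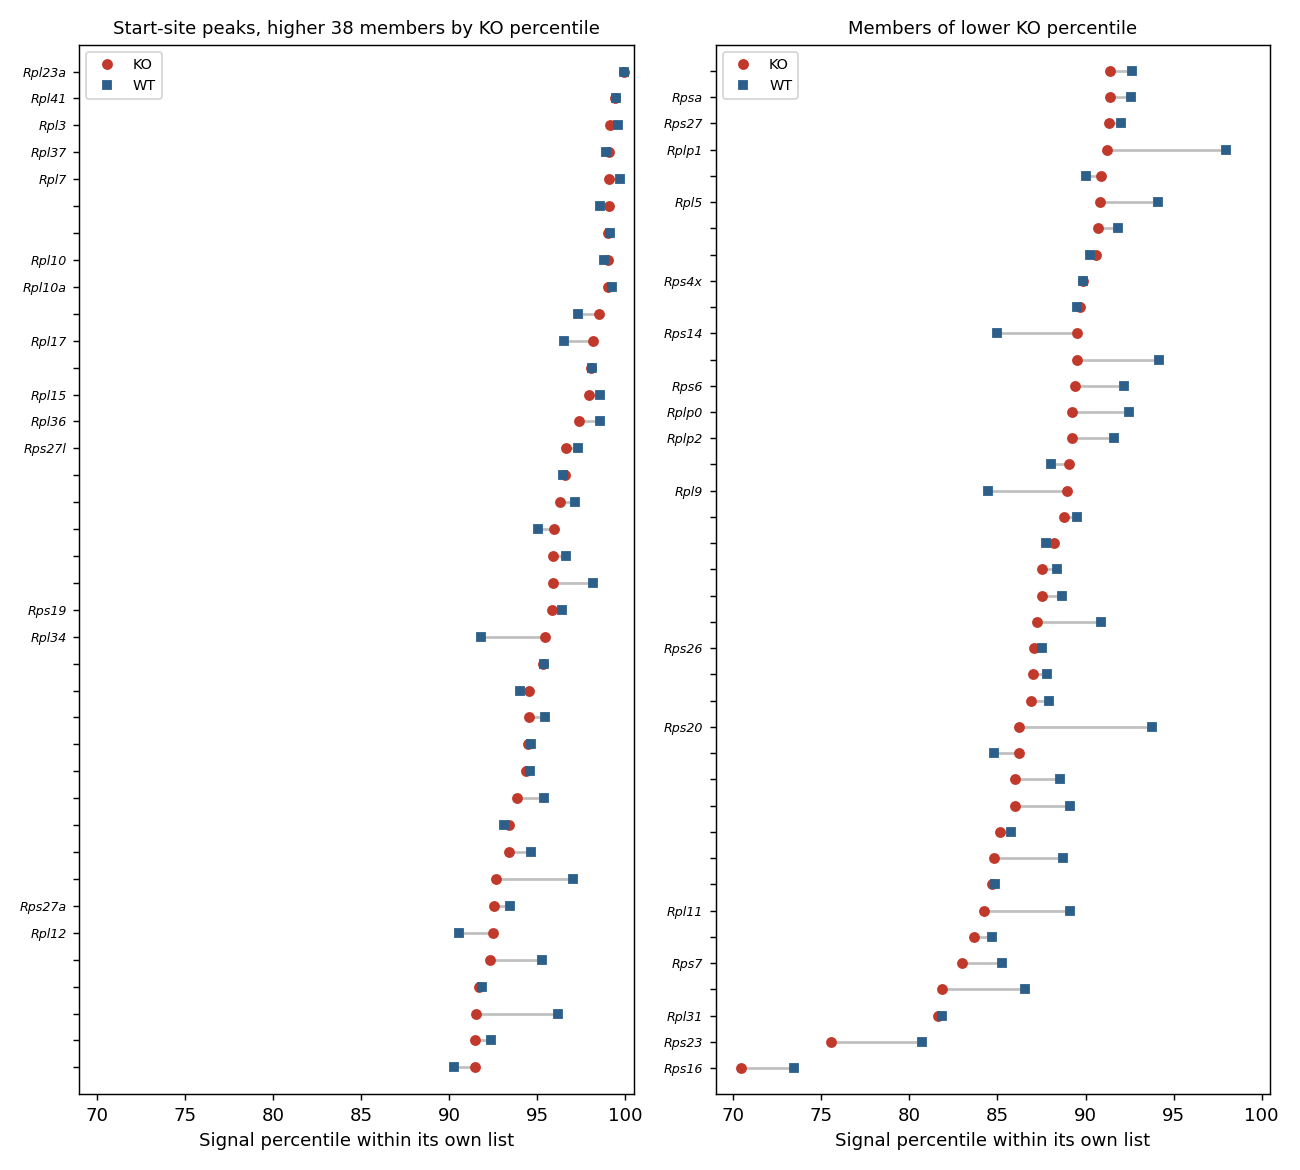
Signal percentile within its own list (x axis) of the start-site peak of each of the 77 ribosomal protein genes with one in both lists, sorted by the KO value, with names at genes the text describes; red circles are KO, blue squares are WT, and grey lines join the values of a gene. Most pairs lie close together, between 70.4 and 99.9, and 55 of 77 genes have the WT square to the right of the KO circle.

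Among the members, large-subunit genes had the higher start-site peaks. The 43 large-subunit genes had median percentiles of 93.4 in KO and 94.1 in WT, and the 30 small-subunit genes 89.7 in KO and 91.9 in WT. The KO minus WT difference had a median of -0.17 among large-subunit genes, of which 18 were higher in KO, and of -0.96 among small-subunit genes, of which 4 were higher in KO. Whether the subunits differ was not tested.

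The upper end was held by large-subunit genes. Rpl23a, whose product lies at the exit of the peptide tunnel, stood at 99.9 in both lists, and Rpl41, which encodes a very small basic protein, at 99.4 in KO and 99.5 in WT. The Rpl41 peak spans the whole gene in both lists, and its summit lies 1319 bp after the start and 261 bp beyond the gene end, so its rank is not that of the start alone. Rpl3, which encodes a protein near the peptidyl transferase centre, stood at 99.2 in KO and 99.6 in WT. Rpl7 stood at 99.1 in KO and 99.7 in WT, and Rpl37 at 99.1 in KO and 98.9 in WT. The 6 widest KO start-site peaks were those of Rpl23a (4561 bp), Rpl3 (3686 bp), Rpl41 (3462 bp), Rpl10a (3070 bp), Rpl36 (2933 bp) and Rpl7 (2757 bp). Rpl23a, Rpl3, Rpl7 and Rpl36 are among the 20 members without an annotated start, whose strongest peak may lie at the 3′ end of the gene. The end of another gene lies within 1 kb of the searched site of 18 of the 77 members, whose peaks may serve both genes. Of these 18 members, 13 have an annotated start, and for the rest the searched site is either gene end.

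The lower end was held mostly by small-subunit genes. Rps16 stood at 70.4 in KO and 73.4 in WT, Rps23 at 75.6 in KO and 80.7 in WT, and Rps7 at 83.0 in KO and 85.3 in WT. The large-subunit gene Rpl31 stood at 81.6 in KO and 81.9 in WT. All 4 of these genes have an annotated start.

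The differences largest in size are few. Rps20 stood at 86.2 in KO and 93.8 in WT, a difference of -7.59, and its peak was 1173 bp wide in KO against 2307 bp in WT. Apart from Rplp1, described with the stalk genes, Rps23 followed with -5.17 and Rpl11 with -4.87. In the other direction Rps14, a small-subunit gene known from the myelodysplastic syndrome with loss of part of a chromosome arm in people, stood at 89.5 in KO and 85.0 in WT, and its peak measured 1708 bp in KO and 868 bp in WT. Rpl9 stood at 89.0 in KO and 84.5 in WT, Rpl34 at 95.5 in KO and 91.8 in WT, Rpl12 at 92.5 in KO and 90.5 in WT, and Rpl17 at 98.2 in KO and 96.5 in WT. Rps20, Rps14 and Rpl17 have no annotated start in the promoter table, so either end of these genes was searched.

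The stalk proteins recruit and activate the GTPases of translation. Their genes all ranked lower in the KO list, Rplp0 at 89.2 in KO and 92.5 in WT and Rplp2 at 89.2 in KO and 91.6 in WT. Rplp1 stood at 91.2 in KO and 98.0 in WT, but has no annotated start in the promoter table, and its strongest KO and WT peaks are different peaks at opposite ends of the gene. The same holds for Rpl3 and Rpl8, so the differences of these 3 genes do not compare the same peak. Each of their peaks overlapped some peak of the other list.

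Members with known roles beyond the ribosome or in disease mostly stood lower in the KO list, as most members did. Rpsa, the small-subunit protein also described as a laminin receptor, stood at 91.4 in KO and 92.6 in WT. Rps6, the target of S6 kinase, stood at 89.4 in KO and 92.2 in WT. Rpl5 and Rpl11 bind Mdm2 when ribosome assembly fails; Rpl5 stood at 90.8 in KO and 94.1 in WT and Rpl11 at 84.2 in KO and 89.1 in WT. Rps27a, which is made as a fusion with ubiquitin, stood at 92.6 in KO and 93.4 in WT. Rps19, mutated in human Diamond-Blackfan anaemia, stood at 95.8 in KO and 96.4 in WT. The 9 members listed as mutated in that anaemia had medians of 87.5 in KO and 89.1 in WT. The 4 X-linked members differed by between -0.02 and 0.30 percentile points, with Rpl10 at 99.0 in KO and 98.8 in WT and Rps4x at 89.9 in KO and 89.8 in WT.

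Most start-site peaks had their summits close together in the KO and WT lists. The summit moved by a median of 12 bp between the lists, as it did for other genes, by at most 100 bp for 77.9% of members and 83.2% of other genes, and by 3134 bp or more for Rplp1, Rpl3 and Rpl8, as described above. It stood at the identical base for 12 of 77 members. In the 57 members with an annotated start and a peak, the median summit lay 54 bp before the start in KO and 47 bp before it in WT. It was within 100 bp of the start in 41 of 57 members (71.9%) in KO and in the same number in WT, against 48.3% of 9565 other genes in KO and 47.3% in WT. The median width was 1519 bp in KO and 1668 bp in WT, with 51 of 77 peaks narrower in KO. Other genes had median widths of 1505 bp in KO and 1595 bp in WT, and of all genes with peaks in both lists 37.9% were wider in KO and 61.7% wider in WT.

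Away from the start sites the lists differed. Within 10 kb of the members there were 357 KO peaks and 416 WT peaks. Of the KO peaks 17 (4.76%) overlapped no WT peak by at least 1 bp, and of the WT peaks 91 (21.9%) overlapped no KO peak. Near protein-coding genes in general 12.1% of KO peaks were KO-only and 18.3% of WT peaks were WT-only, and over the whole lists 13.4% in KO and 20.4% in WT. The shared share was thus 95.2% of the KO peaks near members (exact 95% interval 92.5 to 97.2) and 78.1% of the WT peaks (73.8 to 82.0). These intervals cover counting error only and treat peaks as independent, which they are not. None of the genotype-only peaks was a start-site peak as defined here. Some members' peaks with their summit within 1 kb of an annotated start were nevertheless genotype-only. Of these, 0 of 56 KO peaks were KO-only and 6 of 64 WT peaks (9.38%) were WT-only. In other genes of similar span with start-site peaks in both lists the shares were 1.19% in KO and 3.495% in WT. In other protein-coding genes they were 2.42% in KO and 6.21% in WT. The WT-only share of the members was the highest of these, but rests on 6 peaks.

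Most of these peaks were weak. The 17 KO-only peaks had a median percentile of 6.55 (range 0.435 to 63.9) and a median width of 184 bp. The 91 WT-only peaks had a median percentile of 12.6 (range 0.448 to 67.1) and a median width of 330 bp. Below percentile 25 of each list, 16 of 77 KO peaks near members (20.8%) were KO-only and 65 of 97 WT peaks (67.0%) were WT-only. Near all protein-coding genes the shares in that class were 34.8% in KO and 50.4% in WT. Between percentiles 50 and 75, 1 of 72 KO peaks and 7 of 79 WT peaks near members were genotype-only (1.39% in KO and 8.86% in WT), against 3.53% in KO and 4.88% in WT near all genes. Above percentile 75 none of the 132 KO and 161 WT peaks near members was. No peak of the other list lay within 1 kb of 12 of the 17 KO-only and 42 of the 91 WT-only peaks. When both lists were cut to the same number of strongest peaks, there were 11 KO-only and 39 WT-only peaks near members. In the upper 50% of each list there were 5 KO-only and 42 WT-only peaks. Overlap was judged again within the cut lists, so a peak also counted when its partner in the other list had been removed. Against the full lists, only 1 KO-only and 7 WT-only peaks lay in the upper 50%. The shares over all peaks under these cuts were not calculated.

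The WT-only share was highest inside the genes. With the summit inside the gene, 0 of 50 KO peaks were KO-only and 26 of 82 WT peaks (31.7%) were WT-only. Inside all protein-coding genes 13.2% of KO peaks were KO-only and 19.2% of WT peaks were WT-only. In other genes of similar span with start-site peaks in both lists the shares were 5.37% in KO and 13.9% in WT. Outside the gene, members had 3 KO-only peaks of 151 (1.99%) and 29 WT-only peaks of 162 (17.9%) out to 2.5 kb, and 4 KO-only peaks of 60 (6.67%) and 19 WT-only peaks of 67 (28.4%) from 2.5 to 5 kb. At 5 to 10 kb they had 10 KO-only peaks of 96 (10.4%) and 17 WT-only peaks of 105 (16.2%). The end of the member was the nearest gene end for 6 of the 17 KO-only peaks and 69 of the 91 WT-only peaks.

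**Figure D2:**
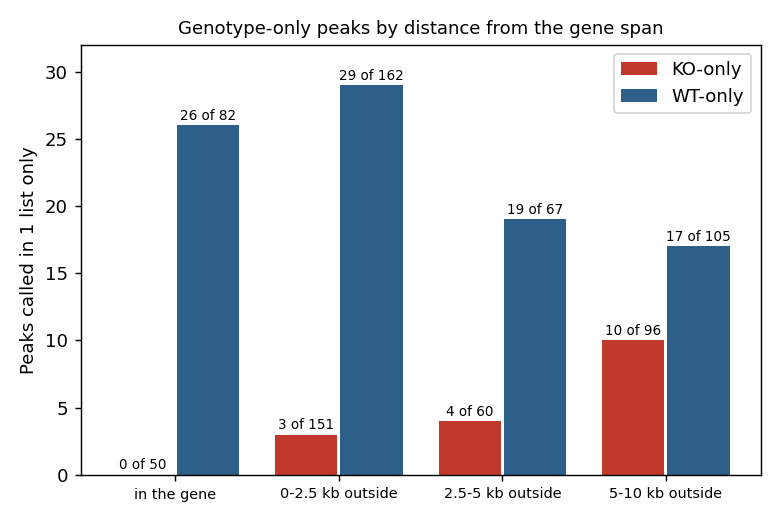
Number of peaks near ribosomal protein genes called in 1 list only (y axis), by distance of the summit from the gene span (x axis); red bars are KO-only peaks, blue bars are WT-only peaks, and the labels give the total of peaks in that class. KO-only peaks number 0 inside the genes and 10 at 5 to 10 kb, and WT-only peaks number 26 inside the genes and 17 at 5 to 10 kb.

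Counted per gene, KO-only peaks outnumbered WT-only peaks at 7 members and WT-only peaks outnumbered KO-only peaks at 40, while 5 members had equal numbers and 29 had none of either. Over all protein-coding genes, KO-only peaks were the more numerous kind at 16.2% and WT-only peaks at 31.6%. Among 3480 other genes of similar span with start-site peaks in both lists, an excess of KO-only peaks was found at 14.3% and an excess of WT-only peaks at 33.3%. For the members these shares were 8.64% and 49.4%. Among 71 initiation and elongation factors, KO-only peaks were the more numerous kind at 8 genes and WT-only peaks at 37. Among 30 ribosome biogenesis genes these counts were 1 and 15, and among 78 mitochondrial ribosomal protein genes 13 and 15.

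Rpl15, a large-subunit gene, showed the largest excess, with 2 KO peaks and 8 WT peaks within 10 kb and 6 of the WT peaks WT-only. Of these 6 peaks, 3 lie inside the gene and the strongest, at chr14:18265322-18266120, lies beyond its 3′ end at percentile 54.4. Rpl7 had 5 KO peaks and 10 WT peaks, 5 of them WT-only, and Rps20 had 4 KO peaks and 7 WT peaks, 4 of them WT-only. Rps26 had 2 KO peaks and 6 WT peaks, with 4 WT-only. The surrounding 10 Mb block held 37.0% as many KO as WT peaks around Rpl7 and 65.3% around Rpl15, but 106.9% around Rps26. A further 10 members followed with 3 WT-only peaks and no KO-only peak, among them Rplp0, Rpl11, Rps27 and Rps27a.

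The strongest WT-only peaks near members were at Rps27 (chr3:90208221-90210609, percentile 67.1), at Rps20 (chr4:3829538-3830725, percentile 65.8, and chr4:3831708-3833341, percentile 62.6), at Rpl15 and inside Rplp0 (chr5:115560798-115561842, percentile 53.6). The peak near Rps27 lies closer to the end of Nup210l, a nucleoporin-like gene, than to that of Rps27.

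Among members with KO-only peaks, Rpl12 had 6 KO peaks and 3 WT peaks, of which 2 were KO-only, the stronger at chr2:32952671-32953142 and percentile 23.9, nearer to Lrsam1. A KO-only peak at chr10:80302562-80302866 near Rps15 stood at percentile 16.6 and another at chr15:5125765-5126133 near Rpl37 at 14.6.

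Regions differ in how many peaks the lists hold, so the count was also split by 10 Mb block. In blocks with at least the KO to WT peak ratio of the whole lists, 45 members had 8 KO-only peaks among 198 and 34 WT-only peaks among 214. In the remaining blocks 36 members had 9 KO-only peaks among 159 and 57 WT-only peaks among 202. WT-only peaks outnumbered KO-only peaks in both classes, but made up a larger share of the WT peaks in the remaining blocks. In the first class that share was below the 18.3% of WT peaks near all protein-coding genes, and in the remaining blocks above it. Peaks near other genes were not split by block.

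Of the upstream stretch, the start, the gene body and the stretch after the gene end, the last held the most bases by which the lists differed. Over the 61 members with a known strand, peaks covered 33.0% of the 5 kb after the gene end in KO and 46.1% in WT. In 2746 other genes of similar span with start-site peaks in both lists they covered 13.0% in KO and 14.5% in WT. This stretch was chosen after the positions of the peaks had been seen. More bases were covered in KO for 5 members, more in WT for 51 and equal numbers for 5, whereas over 17492 protein-coding genes 14.8% had more in KO and 22.8% more in WT. Of the 2746 genes of similar span 21.9% had more in KO and 38.4% more in WT, against 8.20% and 83.6% of the members. These shares also depend on how often any peak is present. Of the genes of similar span 1091 had no covered base in either list, 601 had more in KO and 1054 more in WT. Of 17431 protein-coding genes other than members, 10881 had no covered base in either list. Of the members' peaks with their summit in the stretch 0 of 88 KO peaks were KO-only and 22 of 95 WT peaks (23.2%) were WT-only. In genes of similar span 6.99% of KO peaks were KO-only and 15.6% of WT peaks WT-only. Initiation and elongation factors had 6.38% KO-only and 28.6% WT-only, a higher WT-only share than the members. Mitochondrial ribosomal protein genes had 9.43% KO-only and 7.14% WT-only. The median member had 1482 covered bases in KO and 2477 in WT, against 216.5 in KO and 272.5 in WT for genes of similar span. At least 1 peak reached into the stretch in 55 members in KO (90.2%) and 56 in WT (91.8%), so the genotypes differed in the extent covered more than in the presence of a peak.

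**Figure D3:**
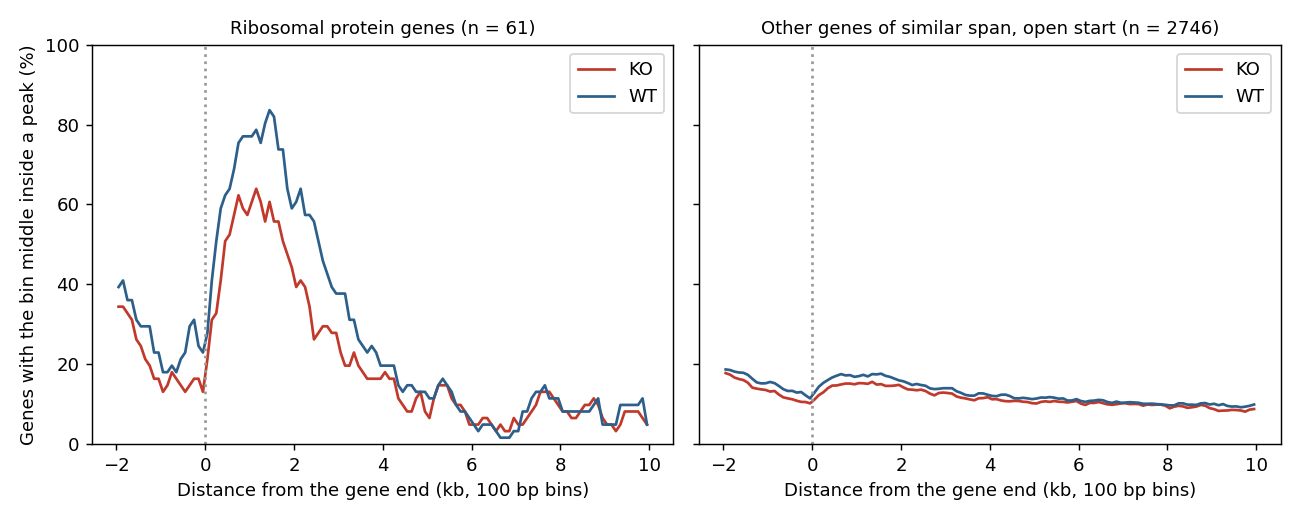
Share of genes (y axis, %) whose 100 bp bin middle lies inside a peak, by distance from the gene end in kb (x axis, positive after the end), for the 61 ribosomal protein genes (left) and 2746 other genes of similar span with start-site peaks in both lists (right); red lines are KO and blue lines WT. The members' curves peak at 63.9% in KO and 83.6% in WT within 2 kb after the end, while the other genes stay under 20% in both.

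The profile rose sharply after the gene end. In KO it was highest 1150 bp after the end, where 63.9% of members were inside a KO peak and 78.7% inside a WT peak. In WT it was highest 1450 bp after the end, where 60.7% of members were inside a KO peak and 83.6% inside a WT peak. In genes of similar span the highest shares were 15.6% in KO and 17.7% in WT. The strongest peak of the stretch had a median percentile of 71.2 in KO and 88.5 in WT and a median width of 1406 bp in KO and 2069 bp in WT. Its summit lay at a median of 1640.5 bp after the gene end in KO and 1627 bp in WT. Rpl41, whose strongest peak there is its start-site peak, was left out of these medians. The summits of both lists thus lay at about the same median distance, and the KO peaks were narrower and of lower rank. Width and rank are not separate measures, since the signal sums over the peak. In members with no other gene in the stretch, the median summit lay 1644.5 bp after the end in KO and 1823.5 bp in WT. In lists cut to equal length, peaks covered 30.4% of the stretch in KO and 43.8% in WT, and the part of sequencing depth in this difference was not tested.

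In covered bases the gene body differed as well, and in proportion more than the stretch after the gene end. The start and the upstream stretch differed in covered bases about as much as in genes of similar span. In the 1 kb on either side of the start, peaks covered 65.8% in KO and 69.3% in WT, against 65.7% in KO and 68.7% in WT for genes of similar span. From 1 to 10 kb before the start they covered 8.17% in KO and 9.07% in WT, against 9.62% in KO and 10.6% in WT. In the gene body from 1 kb after the start on they covered 12.4% in KO and 21.0% in WT, against 9.35% in KO and 11.1% in WT. There 0 of 27 KO peaks of members were KO-only and 18 of 43 WT peaks (41.9%) were WT-only. In the bodies of genes of similar span 8.06% of KO peaks were KO-only and 21.1% of WT peaks WT-only. Initiation and elongation factors had 9.33% KO-only and 35.7% WT-only, and mitochondrial ribosomal protein genes 9.26% and 18.6%. In members the bases covered in KO were 0.588 times those covered in WT in the body and 0.715 times after the gene end. These ratios were 0.840 and 0.896 in genes of similar span, and 0.769 and 0.814 in initiation and elongation factors.

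**Figure D4:**
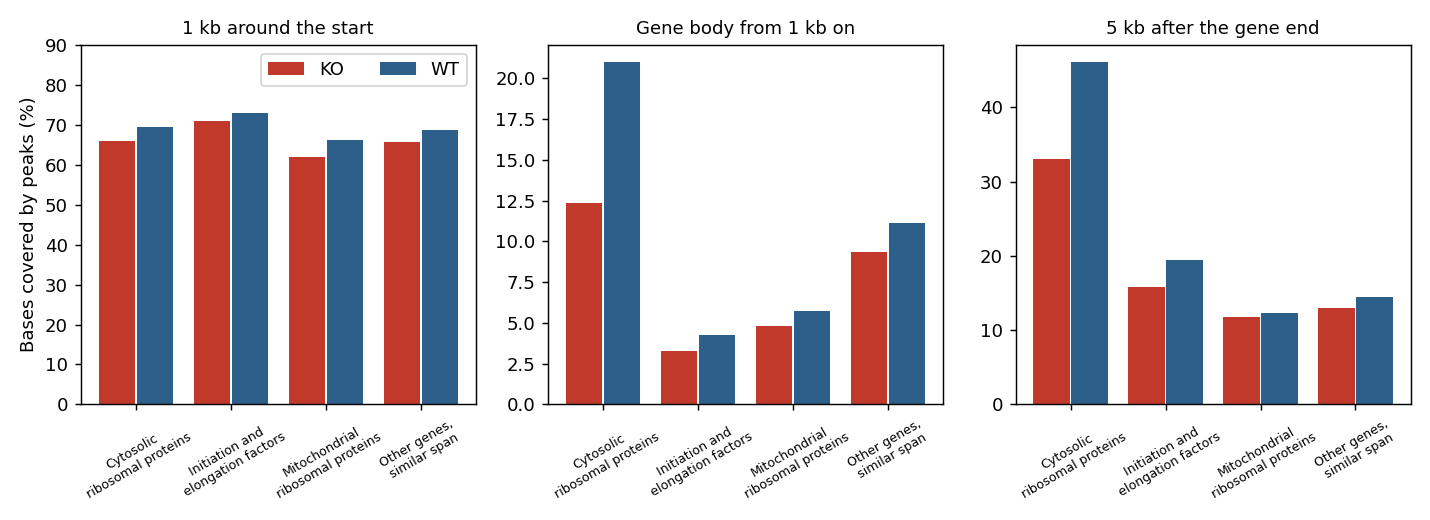
Bases covered by peaks (y axis, %; the scale differs between panels) in the 1 kb on either side of the start (left), the gene body from 1 kb on (middle) and the 5 kb after the gene end (right), for 4 sets of genes; red bars are KO and blue bars WT. The bars of the ribosomal protein genes are near those of the other sets at the start, and reach 33.0% in KO and 46.1% in WT after the gene end.

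Neighbouring genes were present in the stretch after the gene end of 32 members. In the 29 members with no other protein-coding gene there, peaks covered 27.4% in KO and 44.1% in WT, with 0 members more covered in KO, 26 more covered in WT and 3 equal. Those 3, Rpl10l, Rpl39l and Rpl34, had no covered base in either list. Rpl34 is unlike the paralogs in having a start-site peak in both lists.

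Members chosen for the size of this difference, after their values were seen, were mostly small-subunit genes. Rps27 had no covered base in KO and 2743 bp in WT, in a stretch that also holds Nup210l. Rps28 had 1482 bp in KO and 4870 bp in WT, beside Kank3. With no other gene in the stretch, Rps12 had 1886 bp in KO and 3645 bp in WT, and Rps10 had 1716 bp in KO and 3272 bp in WT. Rps7 had 1377 bp in KO and 2905 bp in WT, and its strongest peak there stood at percentile 49.1 in KO and 84.4 in WT. Rpl14 had 1453 bp in KO and 2948 bp in WT, and the X-linked Rps4x 816 bp in KO and 2285 bp in WT. Rps16 and Rps23, the lowest at their starts, had 1467 bp in KO against 2764 bp in WT and 1405 bp in KO against 2547 bp in WT.

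The 5 members with more coverage in KO all have another gene in the stretch. Rpl7a, beside Surf1 and Surf2, had 3694 bp in KO and 3171 bp in WT. Rpl35 had 107 bp, Rpl38 55 bp, Rpl35a 10 bp and Rplp0 2 bp more in KO than in WT.

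**Figure D5:**
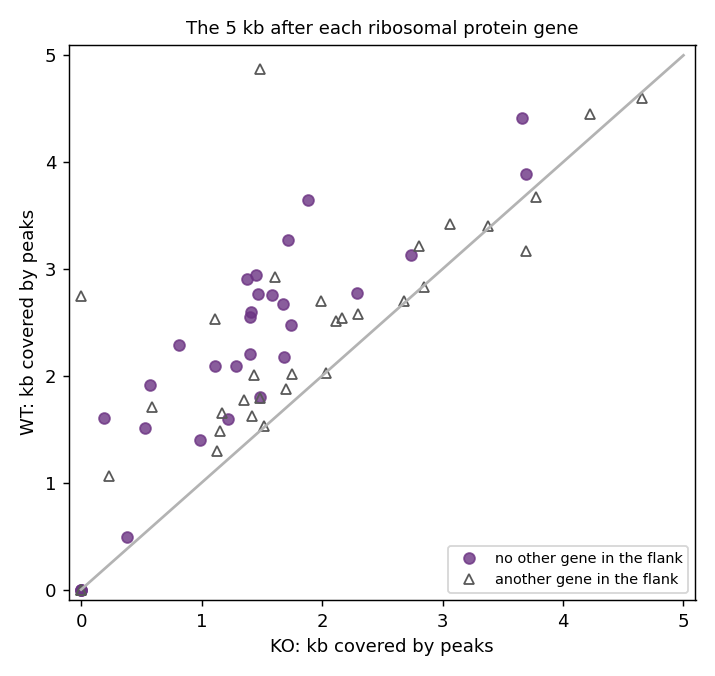
Bases covered by peaks in the 5 kb after the end of each of 61 ribosomal protein genes, KO on the x axis and WT on the y axis in kb; filled circles have no other protein-coding gene in the stretch, open triangles have one, and the grey line marks equality. Most points lie above the line: 5 members have more covered bases in KO and 51 have more in WT.

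Genes of the same pathway were set beside the members. All 78 mitochondrial ribosomal protein genes had start-site peaks in both lists, and 7.38% of their 298 KO peaks were KO-only and 10.5% of their 306 WT peaks WT-only. After their gene ends, peaks covered 11.8% in KO and 12.3% in WT for the 69 with a known strand. Initiation and elongation factors had start-site peaks in both lists for 65 of 71 genes, with 6.07% KO-only of 313 KO peaks and 21.7% WT-only of 360 WT peaks, and 15.8% of the stretch after the gene end covered in KO and 19.4% in WT.

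Of the 30 ribosome biogenesis genes, 12 RNA polymerase I genes and 14 growth control genes, with Mtor and Myc among the last, every gene had a start-site peak in both lists. KO-only shares were 5.17%, 8.47% and 12.6% of the KO peaks of these lists, in that order, and WT-only shares 21.5%, 18.5% and 18.8% of their WT peaks. The 7 ribosomal protein genes that the symbol rule leaves out, which include Fau, Rack1 and Rps3a1, also had start-site peaks in both lists. Of their 33 KO peaks 0 were KO-only, and of their 39 WT peaks 8 (20.5%) were WT-only.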

How the data were processed

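The members, gene lists and alternatives were chosen with earlier results of these data known. Per the submitters' processing notes, reads were handled with Bowtie2 2.5.1 and the peak caller Genrich, deepTools 3.5.1 is also listed, and the build was GRCm38. Not given in the sources used here are the Genrich settings, any Tn5 shift and the way in which libraries were merged. The authors deposited a score, a signal, a −log10 p, a −log10 q and a summit for every peak. The deposited score, held at a ceiling of 1000, and the q were not used. The deposited signal sums over the peak, so wide peaks rank higher, and it served only as a percentile within its list. Without read totals the depth is unknown; deeper libraries yield more weak calls.

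A peak was near a member if its summit lay in the gene span or within 10 kb, and shared if at least 1 bp of it lay in a peak of the other genotype. Strand and starts came from the RefSeq promoter table, which matched 61 of 81 members. Genes were named for a missing start-site peak, for the 5 highest and 5 lowest KO percentiles, the 5 largest differences per direction, the 6 largest excesses of genotype-only peaks, the 5 strongest genotype-only peaks per list, the 6 widest peaks or a known role; where several genes were equal the text gives some of them. Certain genes this rule takes are left out here. Python 3.11.15, numpy 2.4.6, pandas 2.3.3, scipy 1.17.1 and matplotlib 3.10.9 were used, and overlaps were tested on simulated data and against bedtools 2.31.1.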

Additional observations from a re-analysis of the deposited data

How the results depend on the processing

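No paired analysis was possible because each genotype has 1 combined list without per-library values, and for the same reason no library could be left out. Of 158 alternative values of the main results, 126 stayed close to the reported value, and the median start-site difference changed sign when signal per base was ranked. This tally is no measure of robustness, because some of the 126 could hardly change. Percentiles were not ranked again after weak peaks were removed, so the start-site medians stayed identical under those filters. A minimum summit −log10 p of 5 left the main results unchanged. KO-only peaks near members (17) numbered 5 in the upper 50% by signal, 11 in lists of equal length, 92 with a reciprocal overlap of 50%, 2 within 2 kb, 88 within 50 kb and 6 where the member was the nearest gene. WT-only peaks (91) numbered 42 in the upper 50%, 39 in lists of equal length, 151 with reciprocal overlap, 42 when a KO peak within 1 kb counted as shared, 46 within 2 kb, 196 within 50 kb and, chosen after seeing the data, 37 at a summit −log10 p of at least 8. They outnumbered KO-only peaks in each of these. In lists that were cut, overlap was judged again, so peaks whose partner had been removed also counted as genotype-only. The shared share of KO peaks (95.2%) was 97.5% in the upper 50%, 74.2% with reciprocal overlap, 98.9% within 2 kb, 90.9% within 50 kb and 97.2% by nearest gene. That of WT peaks (78.1%) was 82.5% in the upper 50%, 87.1% in lists of equal length, 63.7% with reciprocal overlap, 89.9% within 1 kb and 86.7% at −log10 p of at least 8. Ranked per base of peak, the start-site medians were 85.6 in KO and 86.3 in WT. The median difference (-0.659) was 0.00583 per base and -0.131 by summit p; the cause was not tested. Without the listed paralogs 1 member, Rpl32l, had no start-site peak. Members with more coverage after the gene end in KO (5) numbered 8 in lists of equal length, 3 over 2 kb and 0 of 29 with no other gene there; those with more in WT (51) numbered 26 of these 29. In lists of equal length the coverage was 30.4% in KO and 43.8% in WT. In a window of 100 bases before to 50 after the start, CACGTG was in 3.28% of members and GGGCGG in 44.3%. Weak peaks near the calling threshold limit these counts, and unknown depth limits every difference in number or width between the lists.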
